A study of Mus musculus with 11 samples.

Results

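Claudins are the membrane proteins that form the strands of the tight junction, and the 9 members of the family described here are those known from intestinal epithelium. They are Cldn2 and Cldn15, which form pores, and Cldn1, Cldn3, Cldn4, Cldn7, Cldn8, Cldn12 and Cldn23, grouped here as sealing members. They were taken by gene symbol from the 35683 genes of the deposited table, each as the sum of its transcripts. RNA was sequenced from the full wall of the colon, 1 mouse per library, at 2 weeks of age. The groups were 6 Tnfr1-/- mice, which lack the TNF receptor encoded by Tnfrsf1a, and 5 wild-type mice. No treatment was stated, and neither were strain, sex, litter, batch or the construction of the Tnfr1 allele. Litter and batch therefore cannot be told apart from genotype, and how the sexes divide between the groups is not known here. The series asked what loss of TNFR1 does early in life, and the values below give the claudin RNA of the 2 genotypes.

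Neighbouring epithelial cells join their claudins across the space between them, and the mix of claudins sets which ions and how much water pass. Cldn2 makes a channel for small cations and water, and Cldn15 one for cations such as sodium. In the gut, Cldn2 is known as a claudin of infancy and of the crypt, whereas Cldn15 is known to gain with maturation. Cldn1, Cldn3, Cldn4 and Cldn8 are known mainly for tightening the junction, and TNF is known to alter several claudins in cultured epithelium.

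Promoters are shown for the pore-forming pair, since Cldn2 had the smallest p of the 9 genes, and for Cldn7, the most abundant. The 250 bases before each RefSeq start (GRCm38.p6) were read 5' to 3' on the strand of the gene. Capitals mark TATAAA, the core of a TATA box, and TTTATG or TTTATT, core letters of sites for the CDX homeobox factors. The windows are chrX:139800558-139800807 (plus strand) for Cldn2, chr5:136967619-136967868 (plus strand) for Cldn15 and chr11:69965171-69965420 (plus strand) for Cldn7.
Cldn2: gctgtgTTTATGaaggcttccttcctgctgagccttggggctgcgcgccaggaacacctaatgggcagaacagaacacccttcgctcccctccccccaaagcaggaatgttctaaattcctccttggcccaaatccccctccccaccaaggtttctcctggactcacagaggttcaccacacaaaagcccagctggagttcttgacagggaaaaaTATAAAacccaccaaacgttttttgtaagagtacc
Cldn15: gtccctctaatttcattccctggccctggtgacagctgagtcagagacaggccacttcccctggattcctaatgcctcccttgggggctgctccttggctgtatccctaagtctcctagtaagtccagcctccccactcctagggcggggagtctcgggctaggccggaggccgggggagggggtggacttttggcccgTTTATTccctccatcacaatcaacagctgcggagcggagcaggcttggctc
Cldn7: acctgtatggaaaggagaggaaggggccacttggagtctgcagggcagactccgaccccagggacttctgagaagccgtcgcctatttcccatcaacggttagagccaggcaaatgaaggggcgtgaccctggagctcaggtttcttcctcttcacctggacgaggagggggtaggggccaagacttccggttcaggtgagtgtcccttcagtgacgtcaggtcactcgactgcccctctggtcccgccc
In Cldn2, TTTATG began 244 bases and TATAAA 35 bases before the start. In Cldn15, TTTATT began 51 bases before the start. The 7 members with a window in the table have 10 windows among them. Cldn2 and Cldn15 were the 2 members with TTTATG or TTTATT on either strand. Counted per window and not per gene, 25.5% of 32851 windows of that length held either. TATAAA was in 1 member, Cldn2, and in 12.4% of all windows. GGGCGG, a GC box, was searched on either strand too and is not marked. It lay 108 bases before the start in Cldn15 and, on the opposite strand, 6 bases before it in Cldn7. Windows of Cldn1, Cldn3, Cldn4 and Cldn12 held it as well, as did 32.7% of all windows. These matches describe letters and not bound sites.

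Values are called abundance here and were read as TPM over a size factor of the library. No header states that unit, and it was inferred from the column sums and the authors' mean counts. On that reading they are per transcript length, and levels can be set side by side between genes. Fold changes are Tnfr1-/- over wild type on the log2(abundance + 0.5) scale from limma, with p-values adjusted by Benjamini-Hochberg over all 15079 genes tested and a call at an adjusted p under 0.05. Tnfrsf1a lay between 19.0 and 28.0 in the 6 Tnfr1-/- libraries and between 61.7 and 73.1 in the 5 wild-type libraries, so the labels and the targeted gene went together. Its log2 fold change was -1.57 (SE 0.10, 95% interval -1.79 to -1.35, limma adjusted p = 8.5e-05), and it was the 1 gene called, or 0.00663% of those tested. Wild-type replicates 1 and 2 had the highest epithelial scores, and Tnfr1-/- replicate 1 came next. The score for 13 epithelial markers was 0.26 and 0.43 in those wild-type libraries, 0.20 in Tnfr1-/- replicate 1 and at most 0.04 elsewhere. For 10 surface colonocyte markers it was 0.67 and 0.80, against at most 0.31 elsewhere, in Tnfr1-/- replicate 1. For goblet cell markers it was 0.49 and 0.58, against 0.45 in Tnfr1-/- replicate 1. Fits below without wild-type replicates 1 and 2 keep Tnfr1-/- replicate 1, and so leave out high-scoring libraries of 1 genotype only. The score is the mean log2 abundance of the list relative to the 11 libraries. In RNA from a whole colon wall, fewer cells of a type and less RNA per cell cannot be told apart.

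No claudin was called different between the genotypes. All 9 members passed the filter on low values, and limma called 0 of 9, against 0.00663% of all genes. At an unadjusted p under 0.05 there were 2 of 9, Cldn2 and Cldn7, against 9.37% of all genes in either direction, and both were lower in Tnfr1-/-, where 5.17% of all genes were lower at that p. The point estimate was lower in 6 members and higher in 3, against 52.1% lower among all genes. The estimate was lower in 3 of 9 without wild-type replicates 1 and 2. Among epithelial markers 11 of 13 were lower, with a median of -0.10, and among surface colonocyte markers 8 of 10, with a median of -0.31. The median log2 fold change was -0.12 over the 9 members and -0.0061 over all genes. Groups overlapped for every member, so that 0 of 9 were fully separate, against 1.49% of all genes. A change of 1.5-fold in either direction was outside the 95% interval for 7 of 9 members and for 82.3% of all genes. Cldn1 and Cldn15 were the 2 exceptions.

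**Figure D1:**
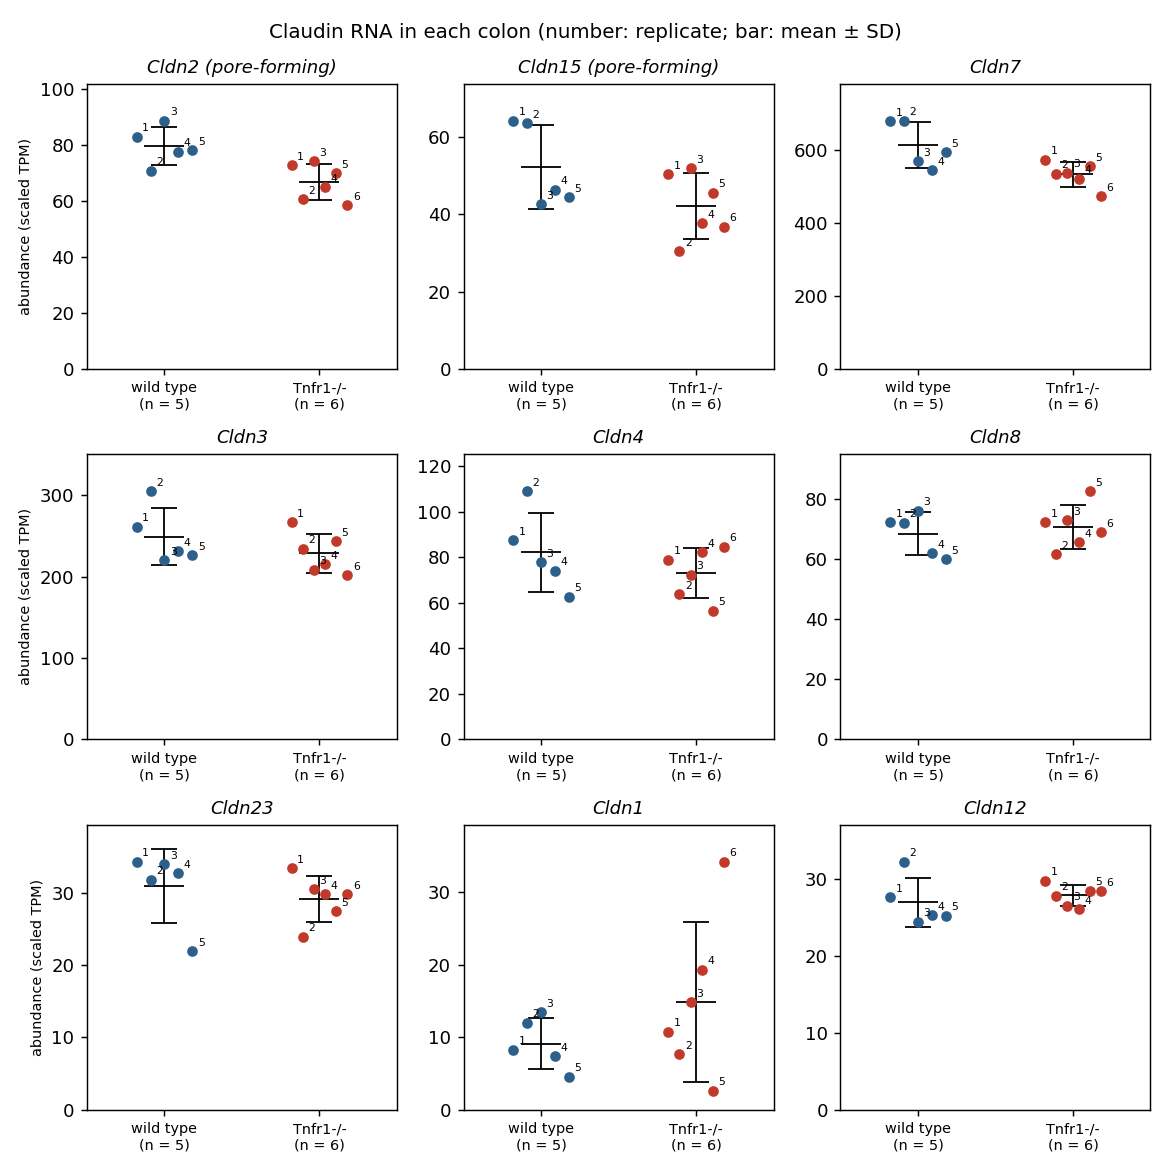
Abundance (TPM scaled by a size factor, each axis from 0) of the 9 claudins in 5 wild-type (blue) and 6 Tnfr1-/- (red) colons; points are libraries numbered by replicate, and the bar and whiskers are the mean and SD. Cldn2 lies at 70.9 to 88.6 in wild type and 58.4 to 74.3 in Tnfr1-/-, and Cldn1 spreads from 2.61 to 34.1 within Tnfr1-/-.

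Cldn2, the cation and water channel, had the smallest p of the members. The gene (ENSMUSG00000047230) lies on chromosome X at 139800828 to 139811386 on GRCm38. Its abundance was 72.7, 60.6, 74.3, 65.0, 69.9 and 58.4 in Tnfr1-/- replicates 1 to 6 and 83.0, 70.9, 88.6, 77.5 and 78.1 in wild-type replicates 1 to 5. Thus 4 of 6 Tnfr1-/- libraries were below all wild-type libraries, and wild-type replicate 2 was the 1 wild-type library within the Tnfr1-/- range. The means were 66.8 ± 6.54 (SD, n = 6) and 79.6 ± 6.64 (SD, n = 5). The log2 fold change was -0.25 (SE 0.08, 95% interval -0.42 to -0.08, unadjusted p = 0.00714), which did not pass over all genes (limma adjusted p = 0.398). Over all libraries pooled, Cldn2 did not follow the epithelial score (Pearson r = 0.10 over 11 libraries, permutation p = 0.778). Within the genotypes r went opposite ways, at 0.51 over the 6 Tnfr1-/- libraries and -0.57 over the 5 wild-type libraries. Without wild-type replicates 1 and 2 its log2 fold change was -0.29 (limma adjusted p = 0.188), and with the epithelial score as a covariate -0.26.

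Cldn15, the other pore-forming member (ENSMUSG00000001739, chromosome 5, 136966616 to 136975858), was lower in Tnfr1-/- by its point estimate and did not pass. It was at 50.4, 30.5, 52.0, 37.8, 45.6 and 36.8 in Tnfr1-/- replicates 1 to 6 and at 64.2, 63.7, 42.6, 46.4 and 44.4 in wild-type replicates 1 to 5. The high wild-type values were those of replicates 1 and 2, and the other 3 lay within the Tnfr1-/- range. The means were 42.2 ± 8.50 (SD, n = 6) and 52.3 ± 10.8 (SD, n = 5). The log2 fold change was -0.31 (SE 0.16, 95% interval -0.66 to 0.05, limma adjusted p = 0.593). It was -0.10 without wild-type replicates 1 and 2 (limma adjusted p = 0.788).

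The deposited table splits Cldn15 mainly between a pair of transcripts with different starts and the same coding length. ENSMUST00000001790.5, with 5 exons, begins at 136967869, the base after the promoter window printed above. ENSMUST00000111093.7, with 6 exons, begins upstream at 136966616. The inner-start transcript was at 27.7, 14.8, 18.7, 14.4, 19.4 and 22.5 in Tnfr1-/- replicates 1 to 6 and at 36.0, 28.3, 28.4, 23.5 and 30.8 in wild-type replicates 1 to 5. All Tnfr1-/- libraries except replicate 1 were below all wild-type libraries. Its log2 fold change was -0.60 (SE 0.17, unadjusted p = 0.00443), which did not pass over 33276 transcripts (limma adjusted p = 0.465). The outer-start transcript was at 22.2 ± 6.95 in Tnfr1-/- colons (SD, n = 6) and 22.6 ± 9.14 in wild-type colons (SD, n = 5), a log2 fold change of 0.02 (limma adjusted p = 0.995). The inner start held 46.9 ± 9.90% of the abundance of all Cldn15 transcripts in Tnfr1-/- colons (SD, n = 6) and 57.4 ± 10.5% in wild-type colons (SD, n = 5). The ranges of 36.0% to 61.2% and 44.5% to 69.3% overlap. Whether the 2 transcripts differ in their response was not tested, and single-end reads of 75 bases cannot settle how RNA divides between overlapping transcripts.

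**Figure D2:**
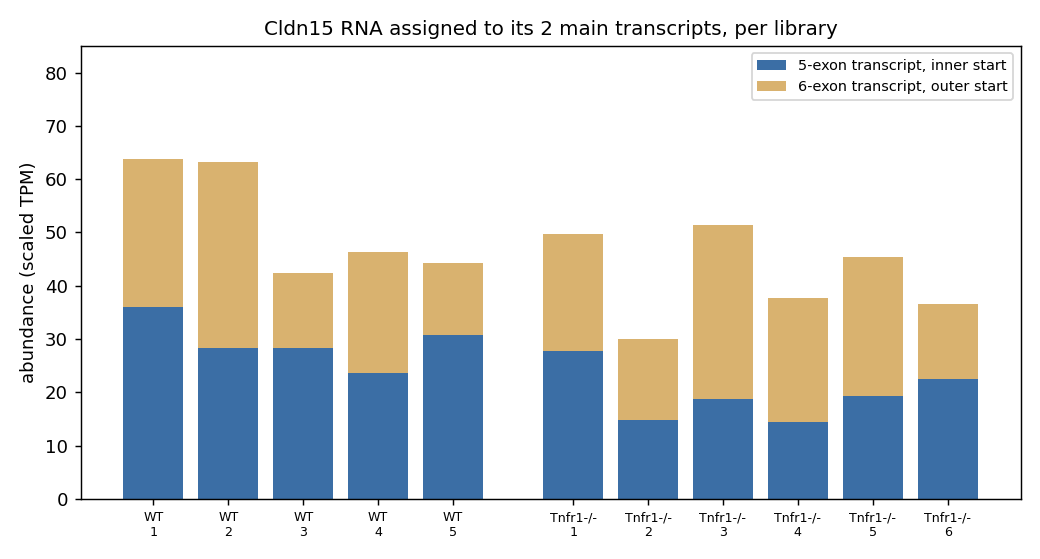
Stacked bars give the abundance (TPM scaled by a size factor, from 0) assigned to the inner-start 5-exon (blue) and outer-start 6-exon (tan) transcripts of Cldn15 in each library, 5 wild type and 6 Tnfr1-/-. The blue part is between 23.5 and 36.0 in wild type and between 14.4 and 27.7 in Tnfr1-/-, and the ranges of the tan part overlap.

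Cldn7, a claudin of the lateral membrane that binds EpCAM, was the most abundant member and the other one with an unadjusted p under 0.05. The gene (ENSMUSG00000018569) lies on chromosome 11 at 69964779 to 69967885. Abundance was 574, 535, 538, 522, 556 and 474 in Tnfr1-/- replicates 1 to 6 and 679, 679.9, 569.7, 545 and 593 in wild-type replicates 1 to 5. Wild-type replicates 1 and 2 were again the highest, and 4 of 6 Tnfr1-/- libraries were below all wild-type ones. The means were 533 ± 34.2 (SD, n = 6) and 613 ± 62.5 (SD, n = 5), a log2 fold change of -0.20 (SE 0.07, 95% interval -0.36 to -0.04, limma adjusted p = 0.449). Without wild-type replicates 1 and 2 it was -0.10 (limma adjusted p = 0.469), with a 95% interval of -0.24 to 0.04. EpCAM RNA (Epcam) was at 728 ± 63.6 in Tnfr1-/- colons (SD, n = 6) and 804 ± 121 in wild-type colons (SD, n = 5), and its highest values, 922 and 948, were those same 2 libraries.

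Most Cldn7 RNA, 70.4%, was assigned to ENSMUST00000018713.12 (4 exons), whose log2 fold change was -0.14 (limma adjusted p = 0.696). A further 23.9% went to ENSMUST00000108597.7 (5 exons), at -0.15. ENSMUST00000108596.7, a short transcript with 3.31% of the abundance, was at 7.94, 0.202, 0.653, 6.59, 1.67 and 23.5 in Tnfr1-/- replicates 1 to 6 and at 57.1, 1.29, 35.5, 24.6 and 48.0 in wild-type replicates 1 to 5. High values were found in 4 of 5 wild-type libraries, and the remaining one, replicate 2, was at 1.29. Its limma adjusted p was 0.592.

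Cldn3 and Cldn4, sealing claudins known as receptors for a clostridial enterotoxin, are encoded 39.3 kb apart on chromosome 5. Cldn3 (134986214 to 134987472) was at 267, 234, 209, 215, 244 and 202 in Tnfr1-/- replicates 1 to 6 and at 262, 305, 220.4, 231 and 227 in wild-type replicates 1 to 5. Cldn4 (134945119 to 134946934) was at 78.9, 63.7, 72.4, 82.1, 56.5 and 84.5 in Tnfr1-/- and at 87.3, 109, 77.7, 74.1 and 62.7 in wild type. Both were highest in wild-type replicate 2, and the groups overlapped over most of their range. The log2 fold change was -0.12 for Cldn3 (SE 0.10, 95% interval -0.33 to 0.09, limma adjusted p = 0.737). For Cldn4 it was -0.16 (SE 0.14, 95% interval -0.47 to 0.16, limma adjusted p = 0.758). Without wild-type replicates 1 and 2 they were 0.0088 and 0.02.

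Cldn3 was the member that followed the epithelial markers most closely. Over the 11 libraries its log2 abundance and the epithelial score had Pearson r = 0.93 (permutation p = 1.6e-04, adjusted p = 0.0173 over 108 relations) and Spearman rho = 0.85 (permutation p = 0.00198, adjusted p = 0.153). The Pearson value was 0.84 without wild-type replicates 1 and 2, the farthest in the score. Over the 6 Tnfr1-/- libraries alone it was 0.92. Cldn7 followed the score with r = 0.81 (permutation p = 0.00283, adjusted p = 0.0611, rho = 0.64). That value became 0.42 without wild-type replicates 1 and 2, and over the 6 Tnfr1-/- libraries alone it was 0.88. For Cldn12 it was 0.77 (permutation adjusted p = 0.0722), and 0.63 without those 2 libraries. Cldn3 had r = 0.87 with the surface colonocyte score (permutation adjusted p = 0.0324). With the enteric glia and myelin score, r was -0.85 for Cldn15 and -0.84 for Cldn7 (permutation adjusted p = 0.0346 for each). Without wild-type replicates 1 and 2 these were 0.72, -0.66 and -0.58.

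Cldn8 (ENSMUSG00000050520, chromosome 16, 88560828 to 88563183), known as a sealing claudin of the distal colon, was at 72.3, 61.6, 73.0, 65.7, 82.6 and 68.9 in Tnfr1-/- replicates 1 to 6 and at 72.2, 72.2, 76.1, 62.0 and 60.0 in wild-type replicates 1 to 5. The difference was within the spread between libraries, at a log2 fold change of 0.04 (SE 0.08, 95% interval -0.14 to 0.23, limma adjusted p = 0.910). Cldn12, which lacks the usual scaffold-binding tail of claudins, was at 27.8 ± 1.38 in Tnfr1-/- colons (SD, n = 6) and 27.0 ± 3.18 in wild-type colons (SD, n = 5). Its log2 fold change was 0.05 (95% interval -0.11 to 0.21, limma adjusted p = 0.860). Without wild-type replicates 1 and 2 it was 0.15, with an unadjusted p = 0.0141 and a limma adjusted p = 0.203.

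Cldn12 (ENSMUSG00000046798, chromosome 5, 5489537 to 5514958) has several transcripts whose estimates went opposite ways. ENSMUST00000060947.13 was at 13.7 ± 1.49 in Tnfr1-/- colons (SD, n = 6) and 11.5 ± 1.44 in wild-type colons (SD, n = 5), at a log2 fold change of 0.25 (unadjusted p = 0.0359, limma adjusted p = 0.582). ENSMUST00000115446.7 was at 8.78 ± 1.64 and 10.7 ± 3.47, at -0.23 (limma adjusted p = 0.797). Cldn23 (ENSMUSG00000055976, chromosome 8, 35824712 to 35826559), a claudin of differentiated colon epithelium, was at 29.2 ± 3.19 in Tnfr1-/- colons (SD, n = 6) and 30.9 ± 5.15 in wild-type colons (SD, n = 5). Its lowest library was wild-type replicate 5, at 21.9, with the other 4 wild-type libraries between 31.8 and 34.3. The log2 fold change was -0.07 (95% interval -0.34 to 0.19, limma adjusted p = 0.892). Without wild-type replicate 5 it was -0.19 (unadjusted p = 0.0418, limma adjusted p = 0.560).

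**Figure D3:**
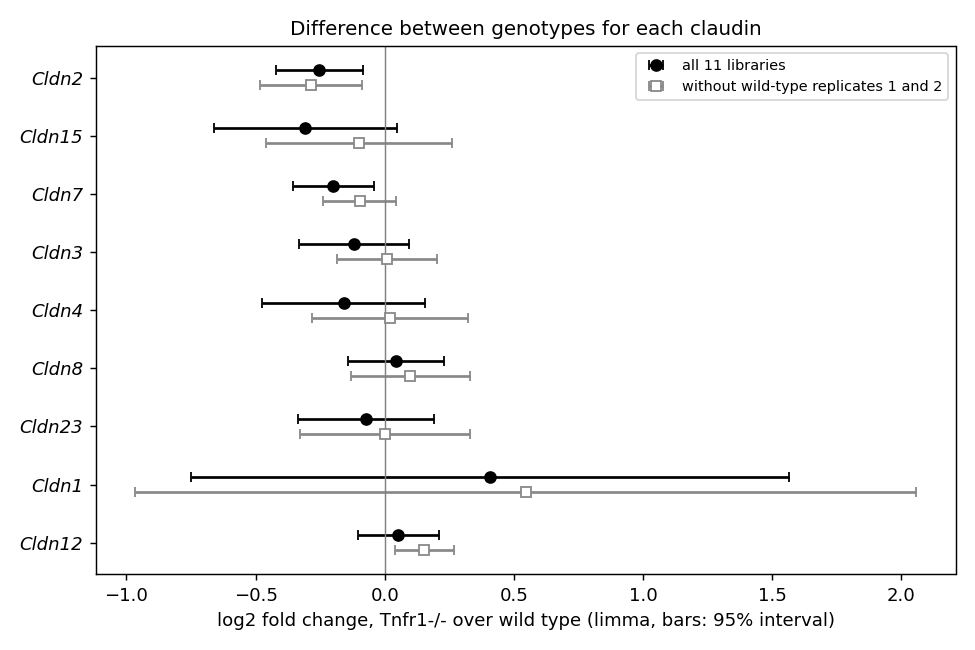
Log2 fold change (Tnfr1-/- over wild type, horizontal axis) of the 9 claudins with its 95% interval, from all 11 libraries (black) and without wild-type replicates 1 and 2 (grey). With those libraries left out, Cldn15 moves from -0.31 to -0.10 and Cldn7 from -0.20 to -0.10, and Cldn2 goes from -0.25 to -0.29.

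Cldn1, a claudin of many tight epithelia and abundant in stratified squamous epithelium such as skin, was the most variable member. The gene (ENSMUSG00000022512) lies on chromosome 16 at 26356642 to 26371841. It was at 10.7, 7.65, 14.8, 19.3, 2.61 and 34.1 in Tnfr1-/- replicates 1 to 6 and at 8.25, 11.99, 13.4, 7.40 and 4.56 in wild-type replicates 1 to 5. The lowest and the highest library were both Tnfr1-/-, replicates 5 and 6, and differed 13.1-fold, whereas the range of the other 8 members over all libraries was 1.32-fold to 2.11-fold. The log2 fold change was 0.41 with a wide 95% interval of -0.75 to 1.57 (SE 0.53, limma adjusted p = 0.847). It was 0.80 without Tnfr1-/- replicate 5 (limma adjusted p = 0.583) and 0.10 without Tnfr1-/- replicate 6 (limma adjusted p = 0.968).

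The 2 genes most like Cldn1 by Pearson r of log2 abundance, among 10864 ranked over 11 libraries, were Endou (r = 0.99, rho = 1), which encodes an RNA endonuclease, and Krt80 (r = 0.99, rho = 0.97), an epithelial keratin. The 11 libraries fell in the same order for Cldn1 and Endou. Endou was at 1.59 and 18.5 in Tnfr1-/- replicates 5 and 6, and Krt80 at 2.92 and 46.1. The summed abundance of 6 markers of squamous (perianal or anal) epithelium was 180 to 769 in Tnfr1-/- and 225 to 371 in wild type, and none of the 6 was at 0 in any library. All 6 had a higher estimate in Tnfr1-/-, where 52.1% of all genes had a lower one. An unadjusted p under 0.05 was found for 2 of 6, Krt4 and Krt13, against 9.37% of all genes. Krt14, a basal keratin, was above all wild-type libraries in 5 of 6 Tnfr1-/- libraries and below them all in replicate 5. It was at 18.8 and 306 in Tnfr1-/- replicates 5 and 6. Krt13 and Krt4, keratins of upper squamous layers, peaked instead in Tnfr1-/- replicate 2, at 183 and 73.6, where Cldn1 was at 7.65. Cldn1 and the score of that list had Pearson r = 0.78 (permutation p = 0.0048, adjusted p = 0.0647 over 108 relations) and Spearman rho = 0.76 (permutation p = 0.0087, adjusted p = 0.156). The Pearson value was 0.47 without Tnfr1-/- replicates 5 and 6, so its size rests in part on those libraries. Over the 5 wild-type libraries alone it was 0.48. With that score as a covariate, a fit added after the values were seen, the log2 fold change of Cldn1 turned to -0.24 (SE 0.38).

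**Figure D4:**
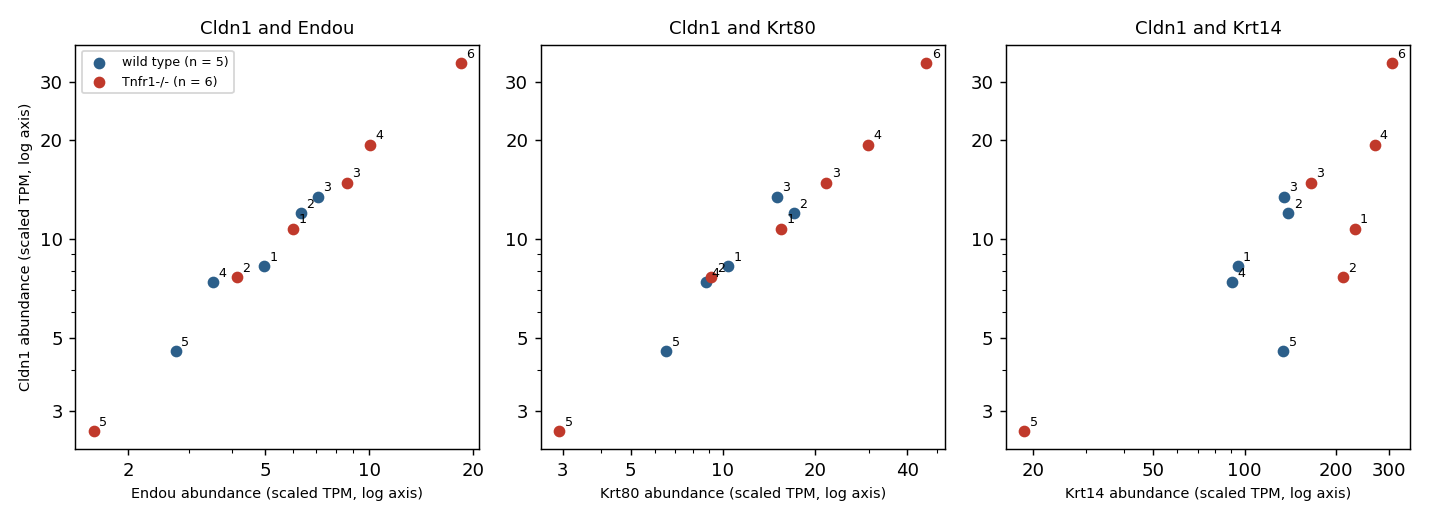
Abundance of Cldn1 (vertical, log axis) against Endou, Krt80 and the squamous marker Krt14 (horizontal, log axes) in 5 wild-type (blue) and 6 Tnfr1-/- (red) libraries, numbered by replicate. Tnfr1-/- replicate 5 is lowest on every axis, with Cldn1 at 2.61 and Krt14 at 18.8, and replicate 6 is highest, at 34.1 and 306.

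The balance of pore-forming to sealing claudins was a little lower in Tnfr1-/- and overlapped between the groups. Cldn2 and Cldn15 together, as a percentage of the sum of the other 7 members, came to 11.6, 9.54, 13.1, 10.7, 11.6 and 10.3 in Tnfr1-/- replicates 1 to 6. In wild-type replicates 1 to 5 they came to 12.6, 10.8, 12.9, 12.7 and 12.3. The highest value was Tnfr1-/- replicate 3 and the lowest Tnfr1-/- replicate 2. The means were 11.1 ± 1.24% (SD, n = 6) and 12.3 ± 0.829% (SD, n = 5), a difference of the mean log2 ratio of -0.14. With Cldn12 left out of the sealing members that difference was -0.139. The sum of the pore-forming pair was 109 ± 14.8 in Tnfr1-/- and 132 ± 9.94 in wild type, and that of the sealing members 977 ± 49.8 and 1080 ± 119 (SD, n = 6 and n = 5). The ratio is given as a description with no test, because the members were grouped with results of these data known.

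**Figure D5:**
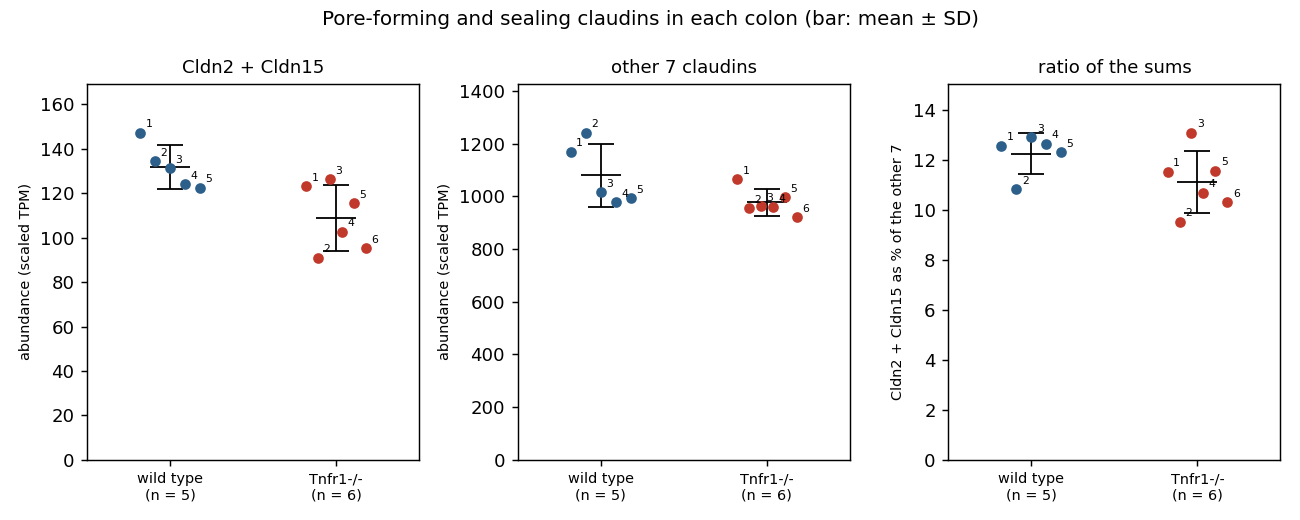
Summed abundance (TPM scaled by a size factor, from 0) of Cldn2 and Cldn15, of the other 7 claudins, and the first as a percentage of the second, in 5 wild-type (blue) and 6 Tnfr1-/- (red) libraries, with mean and SD. The percentage is 10.8 to 12.9 in wild type and 9.54 to 13.1 in Tnfr1-/-.

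Colon claudin RNA at this age was dominated by Cldn7 and Cldn3. Averaged over the 11 libraries, Cldn7 was at 569 ± 62.5 (SD, n = 11), 49.8% of the abundance of the 9 members, and Cldn3 at 238 ± 30.1 (SD, n = 11), 20.8%. Their ranges met neither each other nor that of any other member. Cldn4, Cldn2 and Cldn8 followed at 77.2, 72.6 and 69.7 and could not be ordered, as each was above the next in 6 of 11 libraries. Below them Cldn15, at 46.8, was under Cldn8 and above Cldn23 in 11 of 11 libraries. Cldn23 at 29.97 and Cldn12 at 27.4 were in that order in 7 of 11 libraries, and Cldn1 was lowest at 12.3. The pore-forming Cldn2 thus exceeded Cldn15 in abundance, by 1.11 to 2.08 times in wild type and 1.43 to 1.99 times in Tnfr1-/-.

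The genes most like each member over the 11 libraries differed. Shared tissue makeup, depth and genotype tie genes together in these pooled libraries. Each match is the best of 10864 ranked genes, so a high r arises by selection, and no chance level was computed. Cldn2 was most like Gusb (r = 0.96) and Galns (r = 0.95), which encode lysosomal enzymes. Gusb was at 37.0 ± 2.30 in Tnfr1-/- colons (SD, n = 6) and 43.7 ± 2.72 in wild-type colons (SD, n = 5), with a log2 fold change of -0.24 that did not pass (limma adjusted p = 0.289). Cldn15 was most like Lrrc66 (r = 0.97) and Tmem238l (r = 0.95), and Cldn7 like Pklr (r = 0.97), a pyruvate kinase, and Esd (r = 0.96). For Cldn3 these were Ccni and 2810459M11Rik (r = 0.97 and 0.96), and for Cldn4 Copg2, a subunit of the COPI vesicle coat, and Zfp143 (r = 0.95 and 0.91). Cldn12 was most like Adipor2, an adiponectin receptor, and Snx24 (r = 0.94 and 0.93), and Cldn23 like Nanp and Gimap9 (r = 0.89 and 0.84). Cldn8 had the lowest best match, Plin2 (r = 0.84), a lipid droplet protein, with Enox2 at 0.82.

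Among the members themselves, Cldn3 and Cldn7 were the most alike (r = 0.82), followed by Cldn7 and Cldn15 (r = 0.80). These were 0.62 and 0.48 without wild-type replicates 1 and 2. The 2 pore-forming members had r = 0.58. Cldn1 and Cldn4 had r = 0.64 over all libraries and 0.91 without wild-type replicates 1 and 2, then the highest of all pairs, followed by Cldn2 and Cldn7 at 0.76. Cldn2 and Cldn12 went opposite ways at r = -0.43. Cldn3 and Cldn4, the nearest neighbours on the genome, had r = 0.42, which turned to -0.36 without wild-type replicates 1 and 2.

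Most other genes of the claudin family were scarce. Of 26 further claudin and claudin-domain genes found in the table, 5 passed the filter on low values and the 21 others averaged at most 0.706. Cldn5, the endothelial claudin, averaged 16.6, above Cldn1, and the claudin-domain gene Cldnd1 averaged 35.0, above Cldn23, Cldn12 and Cldn1. Cldn10, known as an ion pore of kidney and glands, was at 1.07, 9.79, 1.67, 3.39, 1.71 and 4.87 in Tnfr1-/- replicates 1 to 6 and between 1.10 and 2.61 in wild type, and did not pass (limma adjusted p = 0.606). None of the 5 was called, against 0.00663% of all genes, and 0 had an unadjusted limma p under 0.05, against 9.37%.

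No partner of the claudins in the junction was called. Of 34 scaffold and tight junction membrane genes listed, 32 were tested. Of these 0 were called, against 0.00663% of all genes. At an unadjusted p under 0.05 there was 1, a higher one, against 9.37% of all genes. That gene was Amotl1, an angiomotin-family scaffold, at 11.6 ± 3.31 in Tnfr1-/- colons (SD, n = 6) and 8.63 ± 1.35 in wild-type colons (SD, n = 5, limma adjusted p = 0.526). Occludin RNA (Ocln) was at 48.5 ± 3.46 and 44.9 ± 3.18 (limma adjusted p = 0.613). The median log2 fold change of the list was 0.0035.

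Among 37 listed regulators of claudin genes and proteins, 36 were tested and 0 called, against 0.00663% of all genes. Their median log2 fold change was 0.02. At an unadjusted p under 0.05 there was 1 lower and 0 higher, against 9.37% of all genes in either direction. That gene was Cdx2, the homeobox factor of intestinal identity, which is known to act on the Cldn2 promoter. Cdx2 was at 82.3, 55.7, 92.4, 70.9, 78.1 and 78.0 in Tnfr1-/- replicates 1 to 6 and at 117, 104, 129, 102 and 122 in wild-type replicates 1 to 5. The groups did not overlap, as was found for 1.49% of all genes. The log2 fold change of -0.60 (SE 0.12, unadjusted p = 2.9e-04) did not pass over all genes (limma adjusted p = 0.289). Its relative Cdx1 was at 136 ± 14.6 in Tnfr1-/- colons (SD, n = 6) and 154 ± 19.8 in wild-type colons (SD, n = 5, limma adjusted p = 0.626). Any part of Cdx2 in the claudin values was not tested.

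The authors' deposited table carries their own test of 18 claudin transcripts, of which 0 had a q-value under 0.05, against 0.00201% of all transcripts in that test. A p-value under 0.05 was held by 3 of 18, against 4.39% of all transcripts in the authors' deposited table. In the authors' deposited table the smallest q-value, 0.765, was that of the inner-start Cldn15 transcript (p = 0.00342, log2 fold change -0.59). Limma on transcripts tested 17 of the 25 member transcripts and called 0, against 0.00902% of all transcripts, with 4 at an unadjusted p under 0.05 against 8.26%. Reads behind the members, estimated from the authors' deposited means, ran from 874 per library for Cldn1 to 16079 for Cldn7. If reads counted as independent molecules, counting error alone was 0.011 to 0.049 on the log2 scale. Sequences of 31 bases shared with another gene were at most 0.407% of any member, so near-identical copies bear little on these values. Cldn3 is overlapped at its end by the antisense gene Wbscr25, and whether the counting used strand is not given in the sources used here.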

How the data were processed

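RNA from full-thickness colon of 11 mice was made into stranded mRNA libraries and read from a single end for 75 bases, per the labels' protocols. CASAVA, kallisto, sleuth and the build mm10 are named in the submitters' processing notes, with versions not given in the sources used here. The values the authors deposited per library are a scaled signal, each library's TPM over its size factor, in the form sleuth writes. That unit was inferred from the column sums and means, since no header states it. Their deposited p-value and q-value columns, log2 fold change and natural log (ln) mean of estimated counts are from their transcript test.

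Repeated lines of 584 transcripts, with identical values, were dropped, 97 transcripts without a gene (0.031% of the summed signal) were left out, and the rest were summed per Ensembl gene. Genes and transcripts with a value of at least 1 in at least 5 libraries entered limma 3.58.1 in R 4.3.3 as log2(value + 0.5) (empirical Bayes, trend on the mean, two-sided). This understates changes of low genes. No count test was run, because the table holds no counts. The table holds no read totals, so depth was estimated only for the members, from the authors' means. Correlations of members with marker scores used two-sided tests with 100000 permutations. Positions are GENCODE M21 on GRCm38, promoters RefSeq. Tables and figures used pandas 2.3.3, numpy 2.4.6 and matplotlib 3.10.9 under Python 3.11.15. The fit was tested on simulated data.

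The members, the lists of other claudins, partners, regulators and markers, and the tests were chosen with earlier results of these data known. Named genes are Tnfrsf1a, the members, up to 4 genes with the smallest p of each list other than the markers, and the 2 genes most like each member by Pearson r with a mean of at least 5. Cldn5, Wbscr25 and the markers Krt4, Krt13 and Krt14 were named after their values were seen. Alternatives were other pseudocounts, filters and scalings, quality weights, a replicate block, marker covariates, and left-out libraries.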

Additional observations from a re-analysis of the deposited data

Results flagged for a closer look

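A library distant from all others of its genotype was found in 7 of 98 sets of values, and chance alone flags about 4.9. In wild-type replicate 5 Cldn23 was at 21.9, whereas the next lowest wild-type library had 31.8. The log2 ratio of pore-forming to sealing claudins was -3.21 in wild-type replicate 2, below the others, the nearest at -3.02. The Cldn7 transcript ENSMUST00000108596.7 was at 23.5 in Tnfr1-/- replicate 6, above the others, the nearest at 7.94. Cldn10 was at 2.61 in wild-type replicate 3, above the nearest at 1.43, although Tnfr1-/- libraries reached 9.79. Ocln was at 50.4 in wild-type replicate 2, above the nearest at 44.4. Copg2, the gene most like Cldn4, was at 22.2 in Tnfr1-/- replicate 5, below the nearest at 24.3, and Cldn4 was lowest in that library too. Plin2, the gene most like Cldn8, was at 151 in wild-type replicate 3, above the nearest at 139, and Cldn8 had its highest wild-type value there.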

How the results depend on the processing

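No claudin and no claudin transcript was called under any alternative run. Of 198 values of a member under an alternative, 190 kept their direction. Cldn2 kept its direction in 22 of 22, from -0.29 to -0.21, with an unadjusted p under 0.05 in 22 and limma adjusted p from 0.176 to 0.641. Cldn7 ran from -0.24 to -0.10, Cldn15 from -0.37 to -0.10 and Tnfrsf1a from -1.64 to -1.51. The 8 reversals were of estimates that were not called. Without wild-type replicates 1 and 2 together, Cldn3 turned to 0.0088, Cldn4 to 0.021 and Cldn23 to 0.0014. With sample quality weights Cldn4 turned to 0.00042 and Cldn23 to 0.031. Cldn8 turned to -0.00086 without Tnfr1-/- replicate 5 and -0.00089 without wild-type replicate 5, and ran up to 0.084 with other single libraries left out. Cldn1 turned to -0.24 with the squamous score as a covariate. The cause of these reversals was not tested. The count of called genes went from 1 to 3 with quality weights and to 3 with the epithelial covariate, and ran from 1 to 2 when single libraries were left out, with 2 without wild-type replicate 1. The difference between genotypes in the mean log2 ratio of pore-forming to sealing members stayed between -0.27 and -0.10. The -0.27 came from averaging log2 values in place of summing abundance, and with sums the lowest was -0.21.

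The labels do not state whether replicate numbers pair the samples. Same-numbered libraries had correlations of 0.274, -0.00596, 0.383, -0.223 and 0.333, and differently numbered ones ran from -0.364 to 0.488. These values cannot settle whether the numbers pair the samples. With the replicate number as a block, Cldn2 was at -0.22 (limma adjusted p = 0.308), with an SE of 0.04 against 0.08 without a block. Under the block 0 claudins and 0 claudin transcripts were called, and the count of called genes was 1. Tnfr1-/- replicate 6 has no wild-type library of its number, so the block in effect left it out. The Cldn2 estimate was the same in the fit without that library. The planned comparison of protein sequences was not run. What depth limits could be estimated only as the counting error of 0.011 to 0.049 on the log2 scale, since the table holds no read totals.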
